A study of Mus musculus with 267 samples.

Results

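Cd36 encodes a scavenger receptor and fatty acid translocase of the plasma membrane, through which macrophages take up oxidized low-density lipoprotein and long-chain fatty acids. The regions described here are those whose centre lies in the body of Cd36 or within 50 kb of it on mm10 (GENCODE vM21, chromosome 5, bases 17781690 to 17888801, minus strand, 107112 bases, 6 transcripts), a window that contained 0 other annotated genes. They numbered 56 of the 423610 regions of the deposited tag tables, and the window also held 514 of the 1958714 peaks of 54 factor peak lists. Regions of different tables that lay within 500 bp of each other were joined into 12 elements, each named by the distance of its centre downstream of the outermost Cd36 transcript start.

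The series profiled bone marrow-derived macrophages (BMDMs), grown from marrow for 7 days in M-CSF, by chromatin immunoprecipitation sequencing (ChIP-seq). The marrow came from female mice of 8 to 12 weeks of 5 inbred strains: C57BL/6J (written C57), the wild-derived SPRET/EiJ (SPRET) and PWK/PhJ (PWK), as well as NOD/ShiLtJ (NOD) and BALB/cJ (BALB). BMDMs were left untreated (basal) or given 20 ng/mL IL-4 for 24 h, and C57 BMDMs also for 1 h and 6 h. A further set compared Egr2 fl/fl BMDMs with LyzMCre Egr2 fl/fl BMDMs, basal and at 24 h. Both of these groups carry the floxed Egr2 alleles, the Cre is driven by a myeloid promoter, and the extent of the deletion cannot be read from the tables used here. H3K27ac was represented by 2 libraries per strain and condition and RNA polymerase II (Pol II) by 2 to 4. The study's methods call replicates biological, but the labels do not tie them to animals, so the tests measure the spread between these libraries.

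The alternative activation of macrophages by IL-4 runs through phosphorylation of STAT6, which binds DNA directly and raises further factors such as EGR2, a zinc finger factor, and PPARg, a nuclear receptor of fatty acid ligands. PPARg is known to drive Cd36 in macrophages and adipocytes. PU.1 and C/EBPb are lineage factors that open enhancers in macrophages before any signal arrives. H3K27ac marks active enhancers and promoters, H3K4me2 marks primed and active elements, H3K4me3 marks promoters, and Pol II marks the transcribed template. A tag count pools a population of cells, so fewer cells with a mark and less of the mark per cell cannot be told apart.

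Values are HOMER tags in a region scaled by the authors to 10000000 tags per library (normalized tags). Library totals ran from 4691644 to 29050468 tags with a median of 12936233, so that 1 normalized tag stood for 0.469 to 2.91 reads. All 6 macrophage markers looked up (Csf1r, Cd68, Adgre1, Itgam, Mertk and Fcgr1) had a promoter region with H3K27ac in all 5 strains, with group means of 374 to 967 normalized tags at Csf1r, 427 to 913 at Cd68, 202 to 428 at Itgam, 122 to 479 at Adgre1, 42.2 to 201 at Mertk and 10.9 to 664 at Fcgr1. Fcgr1 was lowest in SPRET, with 16.5 basally and 10.9 at 24 h. Of 13 markers of other cell types, Cd3d (51.6 to 262 normalized tags) and Cdh5 (57.7 to 209) carried H3K27ac in all 5 strains and Zbtb46 reached 46.0, above the lowest means of Mertk and Fcgr1, whereas Itga2b reached 14.8, above the lowest of Fcgr1, and the others stayed at or below 7.57 or had no region. The part of such cells in the results at Cd36 was not tested. Libraries of a group could stand apart: in PWK at 24 h, 55.0% of the H3K27ac tags of replicate 1 fell in regions against 38.1% of replicate 2, and in BALB at 24 h it was 57.1% against 28.7%.

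Of the 12 elements, 5 were present in all 5 strain tables, at +8.7, +11.9, +31.3, +34.1 and +49.0 kb, all of them intronic in the longest transcript. The element at +52.8 kb (chr5:17835486-17836574) lay 269 bp from an annotated transcript start and was called in C57, BALB, NOD and PWK. The element at +39.0 kb (chr5:17849300-17850300), 8 bp from the start of another transcript, was called in NOD and in the C57 time course. A region at +113.5 kb (chr5:17774802-17775802), past the 3′ end of the gene and intergenic, was listed in PWK alone. The remaining elements, at +41.7, +67.2 and +73.4 kb in NOD and at +46.5 kb in BALB, were each called in 1 strain table. Regions were drawn around peaks of open chromatin, listed as basal, 24 h or both. In PWK +31.3 and +113.5 kb were listed at 24 h alone. The same held for +11.9 and +49.0 kb in SPRET and +73.4 kb in NOD. In the C57 strain table all but +34.1 kb were listed as basal alone, as was +67.2 kb in NOD. The others were listed in both. How this listing bears on the changes at 24 h was not tested.

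The reference sequences of the elements on which the results turn were read from mm10, as 300 bases around the element's centre, plus strand. Matches on either strand to TTGCNNAA (C/EBP), TTCNNNNGAA (STAT6), GAGGAAG (PU.1), AGGNCANAGGNCA (a direct repeat bound by PPAR and RXR) and GNGTGGGNG (EGR) were searched, and matches are in capitals. The +31.3 kb element (chr5:17857346-17857645, plus strand), where the IL-4 response in PWK was largest, held a PU.1 match from base 86, a STAT6 match from base 124 and a C/EBP match from base 137 of the window, and these did not overlap.
+31.3 kb element: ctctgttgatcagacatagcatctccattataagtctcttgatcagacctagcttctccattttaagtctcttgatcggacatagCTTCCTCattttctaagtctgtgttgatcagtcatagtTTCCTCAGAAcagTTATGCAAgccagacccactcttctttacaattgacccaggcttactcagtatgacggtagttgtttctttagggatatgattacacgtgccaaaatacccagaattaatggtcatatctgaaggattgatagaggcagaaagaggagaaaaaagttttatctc
The +34.1 kb element (chr5:17854550-17854849, plus strand), which lies next to it and had peaks in most factor lists, held a C/EBP match from base 135.
+34.1 kb element: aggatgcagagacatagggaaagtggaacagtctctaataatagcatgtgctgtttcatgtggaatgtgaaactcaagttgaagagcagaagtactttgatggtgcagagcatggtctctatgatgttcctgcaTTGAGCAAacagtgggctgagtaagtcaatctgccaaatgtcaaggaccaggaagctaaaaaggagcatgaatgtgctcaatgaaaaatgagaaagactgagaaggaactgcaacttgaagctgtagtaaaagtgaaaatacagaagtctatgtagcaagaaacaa
The RefSeq promoter of Cd36 (chr5:17835847-17836146, minus strand), inside the +52.8 kb element, is shown because Pol II was read there, and held a STAT6 match from base 271.
Cd36 promoter: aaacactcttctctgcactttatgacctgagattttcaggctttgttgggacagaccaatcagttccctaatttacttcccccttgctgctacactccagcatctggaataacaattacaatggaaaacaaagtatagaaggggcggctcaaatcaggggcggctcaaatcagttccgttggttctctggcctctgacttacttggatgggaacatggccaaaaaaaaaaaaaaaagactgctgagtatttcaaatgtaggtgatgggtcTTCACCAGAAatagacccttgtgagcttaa
The +11.9 kb element (chr5:17876699-17876998, plus strand), the site measured in the Egr2 genotypes, held a C/EBP match from base 150.
+11.9 kb element: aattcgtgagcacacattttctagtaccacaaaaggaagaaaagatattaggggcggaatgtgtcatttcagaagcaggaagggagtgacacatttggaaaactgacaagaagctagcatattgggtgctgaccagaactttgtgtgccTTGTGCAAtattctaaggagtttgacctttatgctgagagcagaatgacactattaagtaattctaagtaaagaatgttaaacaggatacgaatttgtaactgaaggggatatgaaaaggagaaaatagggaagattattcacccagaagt
These letters are common. Among 65834 C57 regions cut to the same length, 15.8% held the C/EBP letters, 7.16% the STAT6 letters, 25.1% the PU.1 letters, 12.9% the EGR letters and 0.576% the direct repeat. Among 32851 RefSeq promoters the shares were 10.8%, 6.95%, 13.6%, 14.3% and 0.381%. C/EBP and STAT6 letters together, as at +31.3 kb, were in 1.29% of the C57 regions and all 3 of C/EBP, STAT6 and PU.1 in 0.342%. The direct repeat and the EGR letters were not in any of the windows read at +8.7, +11.9, +31.3, +34.1, +49.0 and +52.8 kb or in the promoter, which says only that these letters are not there on the C57 reference. Strain sequences were not analysed here.

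In basal BMDMs the strains differed most at +31.3 kb. PWK had 15.45 and 16.44 normalized tags of H3K27ac there and NOD had 149.62 and 162.72. C57 had 54.27 and 141.9, BALB had 42.62 and 101.87, and SPRET had 69.25 and 64.53. Both PWK libraries were below all other libraries and both NOD libraries above them, while SPRET, BALB and C57 overlapped. The neighbouring +34.1 kb element had the same ends, with 65.23 and 51.68 normalized tags in PWK and 224.42 and 277.03 in NOD. The other strains lay between them, from 75.23 in the lowest SPRET library to 207.5 in the highest C57 library.

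The test between strains used 28289 regions present in all 5 strains, of which 19% differed between strains in basal H3K27ac (moderated F test of limma, adjusted p at most 0.05). At Cd36, 3 of 5 did: +31.3 kb (adjusted p = 0.00158), +8.7 kb (adjusted p = 0.0061) and +34.1 kb (adjusted p = 0.0101). PWK was below NOD by a log2 difference of -3.21 ± 0.51 (SE; limma adjusted p = 0.000656) at +31.3 kb and of -2.08 ± 0.42 (adjusted p = 0.00396) at +34.1 kb, 2 of 5 elements, where 6.57% of all matched regions differed between these strains. The +34.1 kb call was lost without NOD basal replicate 2 (adjusted p = 0.0587). Against C57, PWK was lower at 1 of 5 elements, +31.3 kb, by -2.39 ± 0.51 (adjusted p = 0.00595), beside 6.96% of matched regions. That call was lost without C57 basal replicate 2 (-1.71, adjusted p = 0.128) or without PWK basal replicate 1 (adjusted p = 0.0518).

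At +8.7 kb it was SPRET that stood low. Its basal H3K27ac was 41.89 and 42.14 normalized tags, against 91.59 and 223.9 in C57, 218.02 and 166 in PWK and 237.72 and 247.66 in NOD, and no library of these strains was as low as SPRET. SPRET was below C57 by -1.75 ± 0.49 on the log2 scale (limma adjusted p = 0.0221), 1 of 5 elements where 12.6% of matched regions differed. The call was lost without C57 basal replicate 2 (-1.11, adjusted p = 0.303), without SPRET basal replicate 1 (adjusted p = 0.109) and without SPRET basal replicate 2 (adjusted p = 0.123). At +11.9 kb basal H3K27ac was 185.4 and 172.26 in PWK, 232.74 and 281 in NOD, 102.59 and 114.58 in SPRET, 80.05 and 176.12 in C57 and 60.99 and 107.24 in BALB, with no call between strains. At +49.0 kb PWK spread from 140.94 to 307.29 and NOD held 329.42 and 341.62, the highest level of H3K27ac of the shared elements in basal NOD. Low basal H3K27ac in PWK was thus measured at +31.3 and +34.1 kb, while its +8.7 and +11.9 kb elements lay above the basal BALB libraries.

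**Figure D1:**
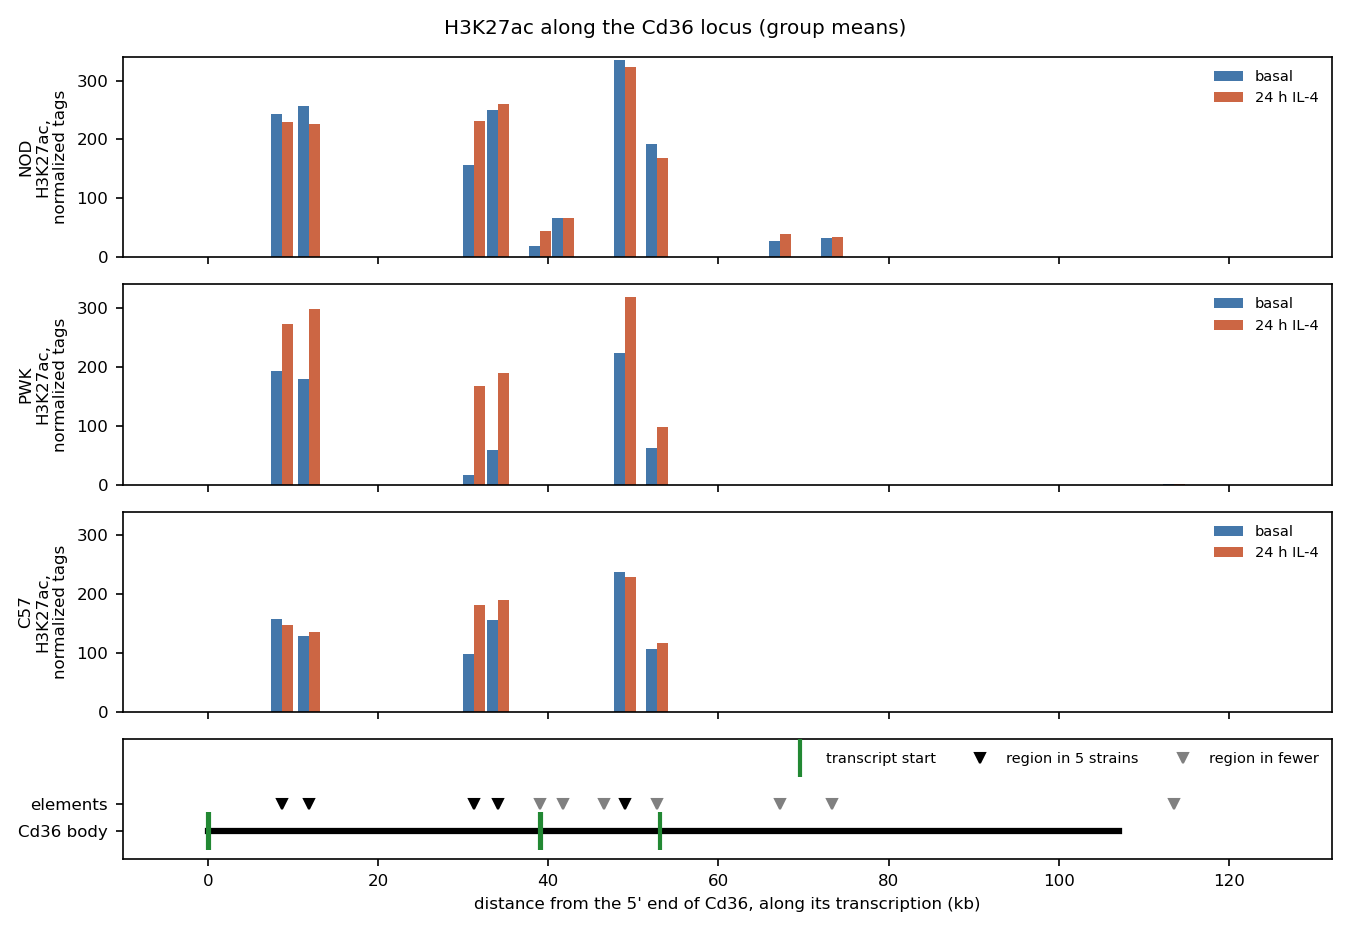
Mean H3K27ac (normalized tags, vertical axis) at each element of the Cd36 window by distance downstream of the outermost transcript start (kb, horizontal axis) in NOD, PWK and C57, basal and at 24 h of IL-4, above a map of the gene body and the elements. At +31.3 kb the basal mean is 15.9 in PWK and 156 in NOD, and at 24 h it is 167 and 232.

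Pol II and H3K4me2 also had their lowest basal mean in PWK at +31.3 kb. Pol II was 1.41, 2.1 and 0.76 normalized tags in PWK, 21.41 and 8.9 in NOD and 5.81, 6.09 and 8.73 in SPRET. It was 1.92, 6.52 and 6.56 in BALB, so that PWK lay below NOD and SPRET and overlapped BALB. Pol II differed between strains at 2 of 5 elements, +31.3 kb (adjusted p = 0.00283) and +49.0 kb (adjusted p = 0.0166), beside 17.4% of matched regions. PWK was below NOD at +31.3 kb by -2.66 ± 0.54 (limma adjusted p = 0.0039; 1 of 5 elements, beside 2.55% of matched regions), a call lost without NOD basal replicate 1 (adjusted p = 0.181). It was below C57 by -2.01 ± 0.45 (limma adjusted p = 0.00506, 1 of 5 elements, beside 5.23%). That call was lost with the replicate number as a block, a fit of replicates 1 and 2 alone (-1.35, adjusted p = 0.172). H3K4me2 was 30.33 and 18.51 in basal PWK. It was 49.32 and 56.27 in SPRET, 52.72 and 70.52 in NOD, 64.26 and 64.61 in BALB and 83.31 and 61.23 in C57, all above PWK. It differed between strains at 1 of 5 elements, +31.3 kb (adjusted p = 0.0210), beside 7.52% of matched regions, and PWK was below C57 there by -1.55 ± 0.42 (adjusted p = 0.0164; 1 of 5, beside 1.78%). The latter call was lost without C57 basal replicate 1 (adjusted p = 0.473), without C57 basal replicate 2 (adjusted p = 0.0749) and without PWK basal replicate 2 (adjusted p = 0.502). At +31.3 kb, then, PWK had the lowest basal mean of the 5 strains for H3K27ac, Pol II and H3K4me2.

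The promoter element at +52.8 kb was absent from the SPRET table and entered a fit over the other 4 strains (35990 matched regions, chosen after seeing the data). Basal H3K27ac there was 36.05 and 87.7 normalized tags in PWK and 186.19 and 196.86 in NOD, 84.13 and 129.78 in C57 and 55.85 and 79.24 in BALB. NOD lay above all other libraries, whereas PWK, C57 and BALB overlapped. PWK was below NOD by -1.75 ± 0.49 for H3K27ac (limma adjusted p = 0.0399), and 3 of 6 elements (+52.8, +34.1 and +31.3 kb) passed beside 5.98% of matched regions. The promoter call for H3K27ac was lost in 5 of these fits that left out a library, up to an adjusted p of 0.406 without PWK basal replicate 1 (-1.12). Those without NOD 24 h replicate 1 or 2 gave 0.0505, and those without NOD basal replicate 1 or 2 gave 0.107 and 0.205. For basal Pol II the difference at the promoter was -1.73 ± 0.46 (adjusted p = 0.0428), with 2 of 6 elements (+52.8 and +31.3 kb) past the test beside 2.13% of regions. The promoter call for Pol II was lost in 10 of 26 alternatives, among them every fit without a basal library of NOD (adjusted p = 0.460 and 0.127) or PWK (adjusted p = 0.102, 0.0937 and 0.120) and the fit with the replicate number as a block (adjusted p = 0.0548). The fit with the block used replicates 1 and 2 alone. The F test over the 4 strains called the same 2 elements for basal Pol II, beside 4.82% of regions. H3K4me3, which marks promoters, was 99.79 and 125.65 normalized tags in basal NOD, 51.68 and 56.56 in C57, 25.94 and 44.46 in PWK and 31.87 and 54.04 in BALB, so that NOD was again highest.

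After 24 h of IL-4, H3K27ac at +31.3 kb in PWK was 230.31 and 103.07 normalized tags, both above the basal 15.45 and 16.44. The log2 change was 3.20 ± 0.51 (SE), a 9.16-fold rise (limma adjusted p = 0.00878), and this was the only 1 of 7 PWK elements that passed, beside 0.535% of all PWK regions. In PWK this region was listed from a peak at 24 h alone, and the part of that listing in the rise was not tested. DESeq2 called 2 and edgeR 1, and 2 had an unadjusted p under 0.05. The call was lost without 24 h replicate 1 (log2 change 2.62 ± 0.61, adjusted p = 0.556) or without 24 h replicate 2 (3.77 ± 0.57, adjusted p = 0.936), the size of the change staying within that range. At +34.1 kb PWK had 65.23 and 51.68 basally and 222.91 and 156.52 at 24 h, again without overlap, with a log2 change of 1.67 ± 0.46 that did not pass (limma adjusted p = 0.145). By the fold rule of at least 2.5-fold in the mean plus 1 normalized tag, with at least 16 normalized tags in either group, 2 of 7 PWK elements were higher, +31.3 kb (9.90-fold) and +34.1 kb (3.21-fold), beside 3.1% of PWK regions.

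In the other strains no element of the window passed the H3K27ac test. At +31.3 kb NOD went from 149.62 and 162.72 to 259.66 and 203.75, C57 from 54.27 and 141.9 to 156.19 and 208.05, and SPRET from 69.25 and 64.53 to 192.19 and 118.46. BALB went from 42.62 and 101.87 to 166.42 and 98.14. The IL-4 libraries were above the basal ones in NOD, C57 and SPRET and overlapped them in BALB. The log2 changes were 1.03 ± 0.52 in C57 (limma adjusted p = 0.286) and 1.16 ± 0.36 in SPRET (adjusted p = 0.154). By limma 0 of 6 elements were called in C57 (0% of all its regions), 0 of 7 in BALB (2.26%), 0 of 10 in NOD (0.0566%) and 0 of 5 in SPRET (1.19%). An unadjusted p under 0.05 was found at 0, 0, 1 and 1 of them, edgeR called 0 in each, and DESeq2 called 1 in SPRET and 0 in the others. The fold rule called 0 in each, beside 3.46% of regions in C57, 2.84% in BALB, 3.24% in NOD and 2.64% in SPRET. With the replicate number as a block, limma called 1 element each in C57, NOD and SPRET.

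Counting elements whose IL-4 libraries were all above the basal ones gave, for H3K27ac, 3 of 7 in PWK (14.6% of all PWK regions), 3 of 5 in SPRET (18.2%), 2 of 10 in NOD (16.6%), 1 of 6 in C57 (18.8%) and 0 of 7 in BALB (13%). In SPRET these were +8.7, +31.3 and +34.1 kb, the first from 41.89 and 42.14 to 58.19 and 65.69 normalized tags. In NOD they were +31.3 kb and the alternative promoter at +39.0 kb, which went from 11.64 and 25.4 to 51.35 and 38.84 (log2 change 1.32 ± 0.59, limma adjusted p = 0.400). H3K4me3 at this alternative promoter in NOD was 23.52 and 35.1 basally and 50.91 and 62.16 at 24 h, also without overlap. The promoter at +52.8 kb in NOD had the reverse order for H3K27ac, 186.19 and 196.86 basally against 180.1 and 156.47 at 24 h.

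At 24 h the strain order at +31.3 kb was BALB (mean 132 ± 48.3 SD, n = 2), SPRET (155 ± 52.1), PWK (167 ± 90.0), C57 (182 ± 36.7) and NOD, which had a mean of 232, and every neighbour in this order overlapped the next. PWK was no longer below NOD by the test: the difference was -0.57 ± 0.51 (limma adjusted p = 0.735), and 0 of 5 elements passed beside 3.41% of matched regions. The sum of H3K27ac over the 5 shared elements was 547.32 and 791.39 normalized tags in basal PWK and 790.22 and 1698.4 at 24 h, with PWK 24 h replicate 1 far above the other. In NOD it was 1186.12 and 1297.83 basally and 1164.53 and 1375.71 at 24 h, so the basal NOD sum was already at the level of its IL-4 libraries.

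**Figure D2:**
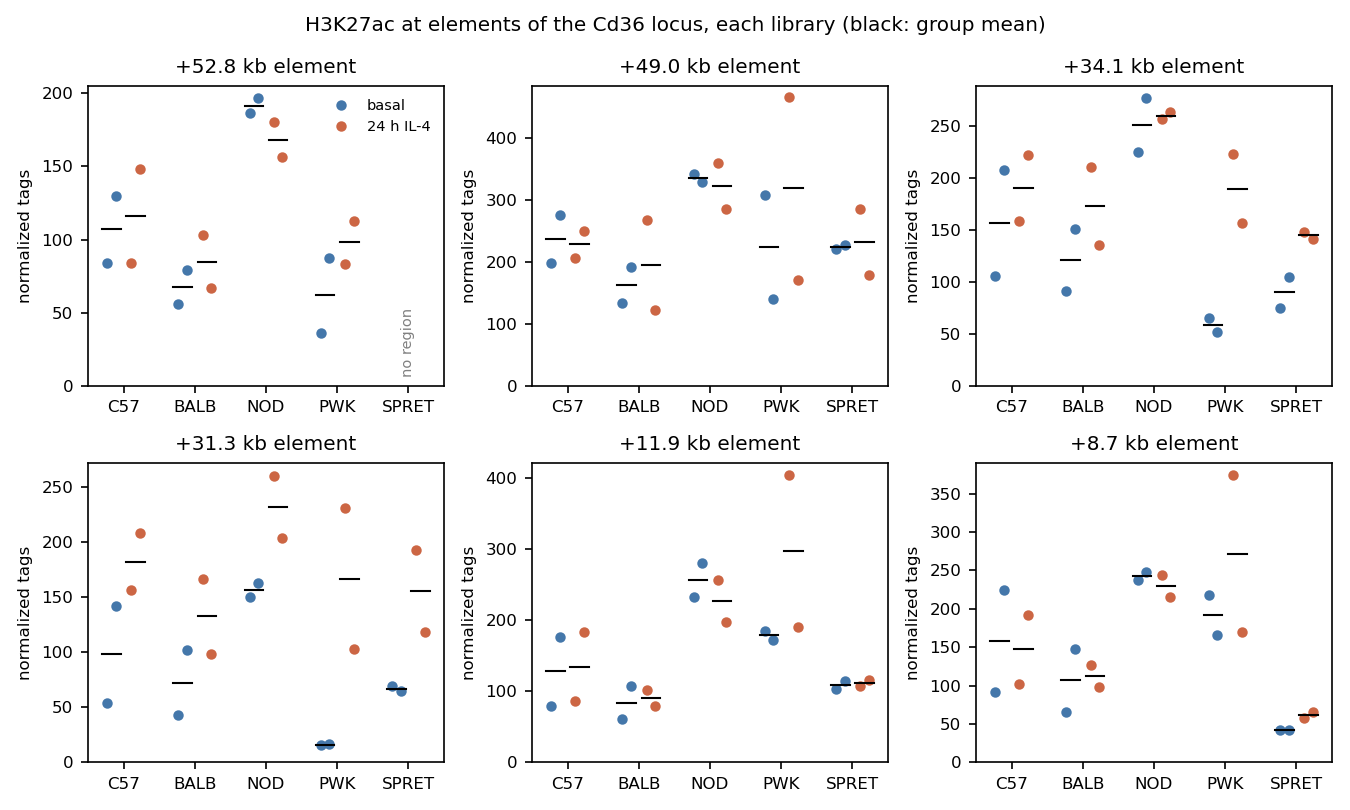
H3K27ac (normalized tags) in every library at 6 elements of Cd36 by strain, basal and at 24 h of IL-4; points are libraries and horizontal bars are group means. At +31.3 kb the basal PWK points (15.45 and 16.44) lie under all others and the 24 h points of the 5 strains overlap.

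Whether strains differed in their response was tested itself. The F test of the 24 h response over the 5 strains called 0 of the 28289 matched regions (0%) for H3K27ac, 0% for Pol II and 0% for H3K4me2, with 352, 506 and 162 regions at an unadjusted p under 0.05. The +31.3 kb element was among the latter for all 3 marks, and its limma adjusted p was 0.999995 for H3K27ac, 0.999766 for Pol II and 0.999983 for H3K4me2. The PWK response exceeded the NOD response there by 2.64 ± 0.72 on the log2 scale for H3K27ac (limma adjusted p = 0.999988) and by 2.92 ± 0.76 for Pol II (adjusted p = 0.999988). These differences are therefore not past the threshold over all regions, and the larger response of PWK remains a description at this element.

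Pol II showed the widest response, again in PWK. At the promoter (+52.8 kb) PWK libraries had 35.27, 43.36 and 34.09 normalized tags basally and 104.98, 114.21 and 134.27 at 24 h. At +34.1 kb they had 4.94, 9.09 and 7.58 against 51.05, 56.03 and 65.85, and at +31.3 kb 1.41, 2.1 and 0.76 against 27.32, 18.32 and 29.08. At +49.0 kb they had 50.79, 26.58 and 16.67 against 99.23, 73.27 and 82.1. All IL-4 libraries were above all basal libraries at these elements, and this held for 7 of 7 elements in PWK, beside 8.87% of all PWK regions. The elements lie along the same gene or past its end and were read from the same libraries. Counts of elements for Pol II are therefore not counts of independent regions. Limma called 5 of 7, beside 1.72% of PWK regions, while edgeR called 4 and DESeq2 6.

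The log2 changes of Pol II in PWK were 3.43 ± 0.46 at +31.3 kb (limma adjusted p = 0.00167), 2.86 ± 0.35 at +34.1 kb (adjusted p = 0.000955) and 1.62 ± 0.26 at the promoter (adjusted p = 0.00634). Those at +31.3 and +34.1 kb passed in all 12 alternatives run, though the +31.3 kb region of PWK was listed from a peak at 24 h alone. The promoter call was lost without 24 h replicate 2 (adjusted p = 0.0770), without 24 h replicate 3 (adjusted p = 0.0628) and without basal replicate 3 (adjusted p = 0.0622), and without the first or the last of these libraries 2 of 7 elements passed. At +49.0 kb the change was 1.54 ± 0.36 (adjusted p = 0.0465), which held in 6 of 12 alternatives. Nearest the upstream end of the gene, +11.9 kb (1.26 ± 0.37, adjusted p = 0.120) and +8.7 kb (1.09 ± 0.32, adjusted p = 0.125) did not pass. The fold rule, with a floor of 8 normalized tags for Pol II, called 6 of 7, all but +8.7 kb, beside 2.66% of PWK regions. In the fit over the regions matched in the 5 strains, which holds 5 of these elements, limma called 2 of 5 for Pol II in PWK, +31.3 kb (adjusted p = 0.000108) and +34.1 kb (adjusted p = 0.00178), beside 1.14% of matched regions, and +49.0 kb did not pass (adjusted p = 0.0840). The same fit called 1 of 5 for H3K27ac in PWK, +31.3 kb (adjusted p = 0.00417), beside 0.622%.

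The region past the 3′ end, at +113.5 kb, was listed in PWK alone, from a peak at 24 h alone, and carried Pol II without histone marks. Pol II there was 12.7, 58.05 and 31.06 normalized tags basally and 161.78, 298.46 and 194.13 at 24 h, at 24 h the highest Pol II level of any Cd36 region in PWK. H3K27ac was 0 and 0.78 basally and 0.67 and 0.95 at 24 h, and H3K4me2 stayed at or below 2.8. The Pol II change was 2.84 ± 0.43 on the log2 scale (limma adjusted p = 0.00393), and the call was lost without 24 h replicate 2 (adjusted p = 0.105) or without basal replicate 3 (adjusted p = 0.0820). No region was listed at this position in the other strain tables, so Pol II past the gene's end was not analysed there.

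**Figure D3:**
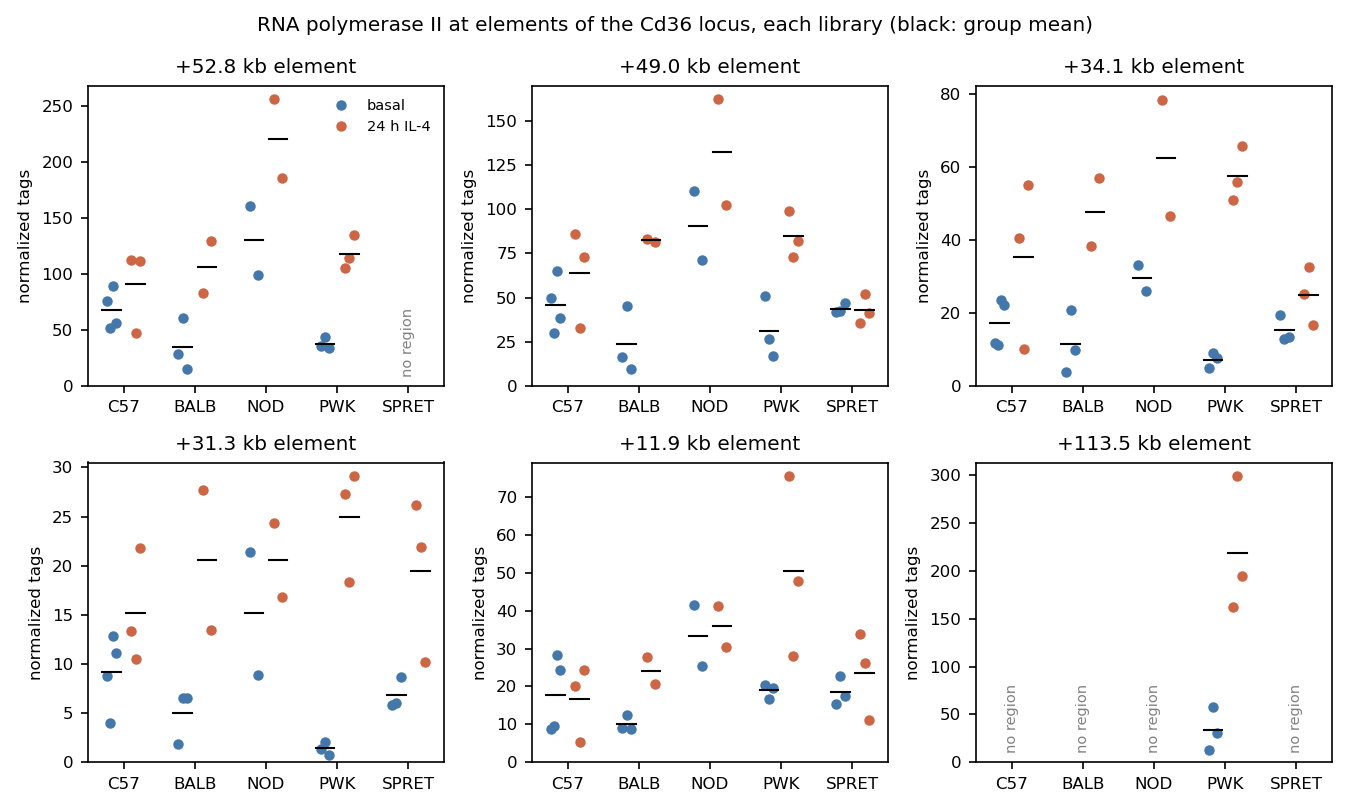
Pol II (normalized tags) in every library at 6 elements of the Cd36 window by strain, basal and at 24 h of IL-4; points are libraries and horizontal bars are group means. In PWK every 24 h point lies above every basal point, from 161.78 to 298.46 against 12.7 to 58.05 at +113.5 kb.

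In BALB, Pol II at the promoter was 28.74, 60.5 and 15.32 normalized tags basally and 83.13 and 129.34 at 24 h, and at +34.1 kb it was 3.83, 20.76 and 9.85 against 38.37 and 57.13. The groups did not overlap at 5 of 7 BALB elements, beside 14.5% of all BALB regions, and the fold rule called 5 of 7, beside 5.91%. Limma called 0 of 7 in BALB (0.707% of its regions), with 5 at an unadjusted p under 0.05, and edgeR and DESeq2 called 0. The change was 4.58-fold at +34.1 kb (limma adjusted p = 0.0785) and 3.38-fold at the promoter (adjusted p = 0.297). In the fit over the 28289 regions matched in the 5 strains, used in this way after seeing the data, limma called 2 of 5 BALB elements for Pol II, +49.0 kb (2.01 ± 0.49, adjusted p = 0.0249) and +34.1 kb (adjusted p = 0.0377), beside 1.47% of matched regions. Both calls were lost without either 24 h library of BALB and without basal replicate 1 or 3 (adjusted p from 0.0515 to 0.189), with median-ratio scaling (adjusted p = 0.110 and 0.191) and with the replicate number as a block (adjusted p = 0.134 and 0.0799). The fit with the block used replicates 1 and 2 alone. The element at +46.5 kb, listed in BALB, had 14.69, 73.54 and 16.41 basally and 61.81 and 117.44 at 24 h, with overlap. Over all BALB regions the median Pol II change was 0.32 on the log2 scale, whereas it lay between -0.10 and -0.02 in the other strains.

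NOD and C57 moved less, where all C57 regions but that at +34.1 kb were listed from basal peaks alone. NOD had 160.26 and 99.28 normalized tags of Pol II at the promoter basally and 255.54 and 185.56 at 24 h, a log2 change of 0.78 that did not pass. Elsewhere in the gene body NOD had 42.17 and 69.84 against 102.89 and 104.59 at +41.7 kb, 76.56 and 43.82 against 190.52 and 92.44 at +67.2 kb and 43.47 and 67.78 against 141.34 and 114.04 at +73.4 kb. NOD Pol II was thus above basal in both IL-4 libraries at each of these elements, where NOD H3K27ac overlapped between conditions. C57 had 76.12, 51.36, 89.5 and 55.69 basally and 112.71, 47.33 and 111.59 at 24 h, with overlap. Groups did not overlap at 6 of 10 NOD elements, beside 17.4% of its regions, and at 0 of 6 C57 elements, beside 3.3%. In SPRET 1 of 5 elements did not overlap, beside 7.05%, which was +31.3 kb with 5.81, 6.09 and 8.73 against 26.2, 21.91 and 10.16 (log2 change 1.30 ± 0.42, limma adjusted p = 0.196). The fold rule called that element, 1 of 5 in SPRET (1.54% of its regions), and 0 of 6 in C57 (1.57%) and 0 of 10 in NOD (2.35%). Limma called 0 of 10 in NOD (0%), 0 of 6 in C57 (0.319%) and 0 of 5 in SPRET (1.05%), with 5, 0 and 1 at an unadjusted p under 0.05, and edgeR and DESeq2 called 0 in each. With the replicate number as a block, limma called 6 of 10 in NOD, where the libraries share 2 numbers. The absence of NOD calls thus depends on leaving the numbers out.

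**Figure D4:**
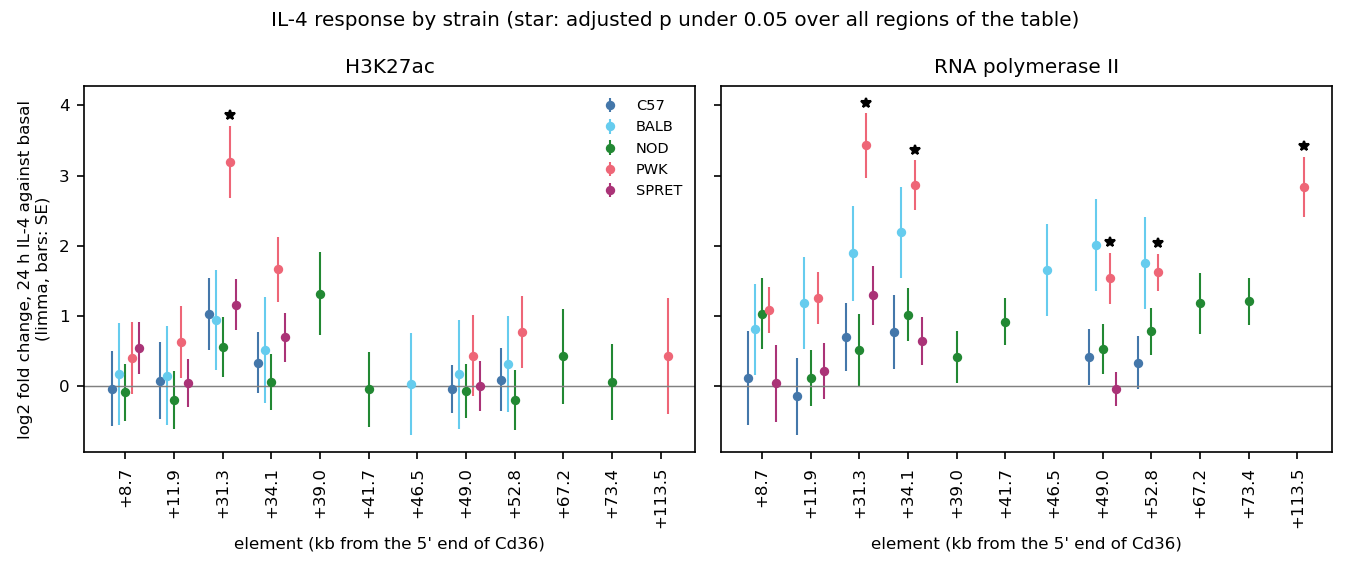
Change at 24 h of IL-4 against basal (log2 of normalized tags plus 1, with SE) of H3K27ac and Pol II at each Cd36 element in the 5 strains; stars mark elements with an adjusted p of at most 0.05. In these fits of each strain by itself, without the replicate number as a block, stars appear in PWK alone. They stand at +31.3 kb for H3K27ac (3.20) and at 5 elements for Pol II.

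H3K4me2 and H3K4me3 did not pass at any of the 35 strain-table elements. For H3K4me2 limma called 0 of 35, beside 0.159% of the regions of the 5 strain tables, with 3 at an unadjusted p under 0.05, and for H3K4me3 it called 0 of 35, beside 0.0115%, with 1. EdgeR and DESeq2 called 0 for both. At +31.3 kb PWK H3K4me2 went from 30.33 and 18.51 to 47.53 and 35.96 normalized tags, whereas C57 went from 83.31 and 61.23 to 52.65 and 21.23. NOD, BALB and SPRET also had lower values at 24 h. Over all regions of a strain the median H3K4me2 change was negative too, at -0.69 on the log2 scale in C57, -0.63 in BALB, -0.48 in SPRET, -0.30 in NOD and -0.18 in PWK. With median-ratio scaling, which sets these medians near 0, the change at +31.3 kb was 0.94 in PWK, -0.39 in C57, -0.21 in NOD, -0.04 in BALB and 0.08 in SPRET, so that the sign turned in SPRET. Without BALB 24 h replicate 1 limma called 7 of 35 for H3K4me2, and without C57 24 h replicate 1 it called 5.

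The C57 time course followed H3K27ac and Pol II at 9 regions of the window. H3K27ac at +31.3 kb was 54.27 and 141.9 normalized tags basally, 153.06 and 47.5 at 1 h, 177.12 and 130.23 at 6 h and 155.34 and 208.05 at 24 h. The basal and 24 h libraries did not overlap, and the 1 h libraries lay below and above the basal pair. In 1 h replicate 2, 20.5% of tags fell in regions against 44.0% in replicate 1, and at the promoter it held 17.21 against 105.9. The change from basal to 24 h at +31.3 kb was 1.02 ± 0.64 (limma adjusted p = 0.411). Limma called 0 of 27 region and time combinations, beside 5.43% over all regions, with 1 at an unadjusted p under 0.05. Without 1 h replicate 1 it called 5. For Pol II at the promoter, the basal libraries held 78, 53.76, 91.11 and 59.74, the 1 h library 86.83, the 6 h libraries 119.92 and 104.33 and the 24 h libraries 114.05, 49.15 and 121.85. Both 6 h values lay above the basal ones while the 24 h values overlapped them, and limma called 0 of 18, beside 0.622%, with 0 at an unadjusted p under 0.05. EdgeR and DESeq2 called 0 for both targets.

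EGR2 tags in C57 were listed at 8 sites of the window, 7 in the gene body and 1 at 4.9 kb upstream. At +31.3 kb they were 32.78 and 25.52 normalized tags basally, 1.81 and 60.76 at 1 h, 22.7 and 92.19 at 6 h and 58.35 and 76.8 at 24 h. At 24 h both libraries were above both basal ones, and at 1 h and 6 h the replicates disagreed. Replicate 1 at 1 h had 5.38% of tags in EGR2 sites against 13.1% in replicate 2. The site at +34.5 kb was highest at 6 h, with 52.37 and 60.1 against 19.2 and 8.06 basally (log2 change 2.08 ± 0.77, limma adjusted p = 0.993). The site in the +11.9 kb element had 8.9 and 0 basally and 19.75 and 24 at 24 h (2.86 ± 1.16, limma adjusted p = 0.838). At +34.1 kb EGR2 tags were 23.42 and 17.46 basally and 43.99 and 39.36 at 24 h, at +8.7 kb 25.29 and 29.55 against 39.05 and 32.64, and at the upstream site 6.56 and 4.03 against 17.95 and 13.44, each without overlap. The sites at +49.1 kb (42.62 and 41.63 against 64.18 and 34.56) and +6.7 kb (33.72 and 12.09 against 54.76 and 26.88) overlapped. The +34.1, +11.9, +6.7 kb and upstream sites were listed as peaks at 24 h alone and the +34.5 kb site at 6 h alone. Higher tags at those times thus follow in part from how sites were listed. Over all sites the median log2 change from basal was 0.66 at 24 h and 0.17 at 6 h. At 24 h the change was 1.01 at +34.1 kb and 0.37 at +8.7 kb. Limma called 0 of 24 site and time combinations, beside 0% of all, with 2 at an unadjusted p under 0.05, and without 1 h replicate 2 it called 3. No count test was run on this table.

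The peak lists describe occupancy as a peak or none, with no test. The share of all regions with such peaks was not counted, so no peak described here is shown to be particular to Cd36. Most lists, 51 of 54, had a peak at +34.1 kb, followed by +49.0 kb with 46, +8.7 and +11.9 kb with 44 each and +31.3 kb with 40. The promoter at +52.8 kb had a peak in 35 lists. PU.1 and C/EBPb, the lineage factors, had peaks at all 5 shared elements in the 5 strains, basal and at 24 h. At +8.7, +11.9, +34.1 and +49.0 kb the same was true of PPARg and STAT6.

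The +31.3 kb element differed from these. PPARg had a basal peak there in NOD alone and a peak at 24 h in all 5 strains. STAT6 had a basal peak in C57, NOD and SPRET and a peak at 24 h in all 5. EGR2 had a peak there in basal NOD and, at 24 h, in BALB and C57, as well as at 1 h in C57. By these lists NOD, the strain with the highest basal H3K27ac at this element, had a peak of all 5 factors there before IL-4. For EGR2 in basal C57 the deposited files differ: the EGR2 time course table marks 3 sites of the window (+8.7, +31.3 and +49.1 kb) as basal peaks, whereas the basal C57 EGR2 list held 0 peaks in the window. Lists differ in depth and length, and their part in these differences was not tested.

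Over the whole window, PWK had 4 STAT6 peaks basally and 15 at 24 h. C57 had 9 and 13, SPRET 8 and 13, BALB 4 and 7 and NOD 9 and 8. PPARg peaks numbered 5 basally and 8 at 24 h for PWK, with 5 and 9 for C57, 6 and 11 for NOD, 5 and 8 for BALB and 6 and 7 for SPRET. PWK had 0 EGR2 peaks in either condition, while EGR2 peaks at 24 h numbered 7 in C57, 6 in SPRET, 5 in BALB and 1 in NOD, which had 5 basally. These counts were not set beside the length of each list, so they do not rank strains or conditions. The EGR2 lists of C57 also carry a differently named score from those of the other strains, and its part in the counts was not tested. The +113.5 kb region, with its Pol II in PWK, had a peak in 1 list, STAT6 in PWK at 24 h. The alternative promoter at +39.0 kb also had a peak in 1 list, PPARg in C57 at 24 h.

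**Figure D5:**
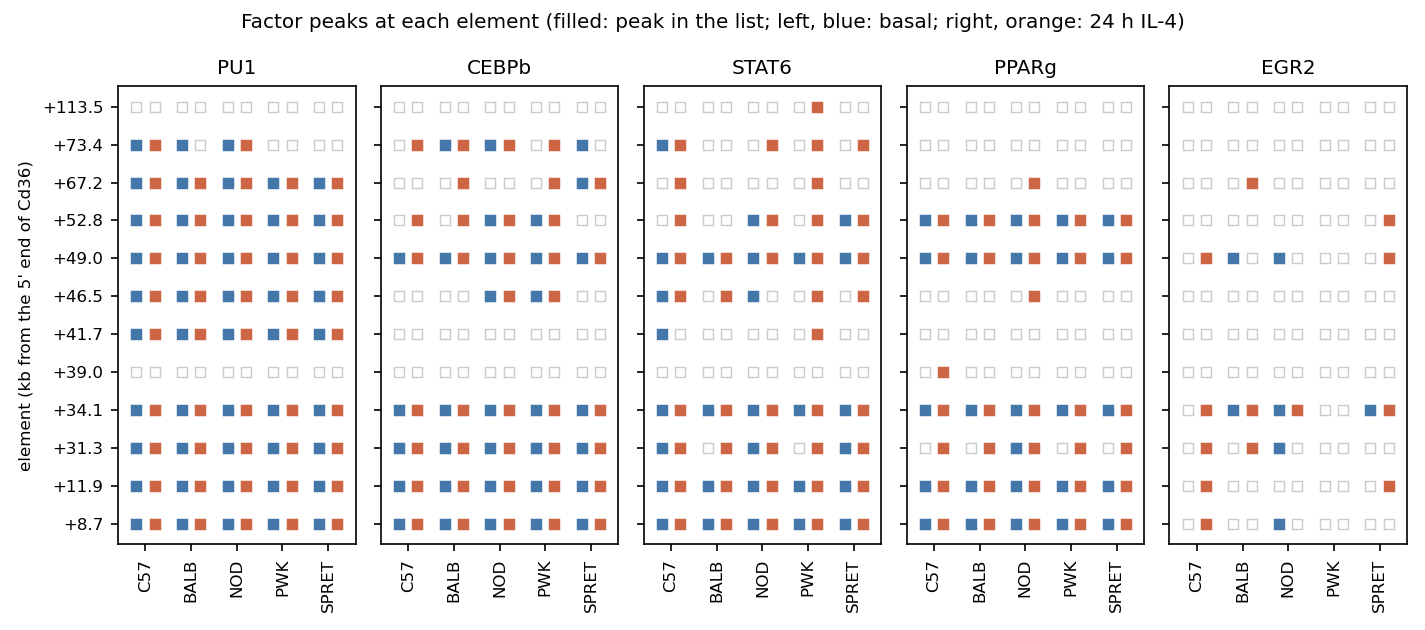
Presence of a peak of PU.1, C/EBPb, STAT6, PPARg and EGR2 (columns by strain, basal and 24 h) at each Cd36 element (rows); a filled square is at least 1 peak overlapping the element. The row at +31.3 kb fills for PPARg from NOD alone to all 5 strains at 24 h, and PWK has no EGR2 peak.

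In the Egr2 genotypes 2 sites of the window were measured, 1 in the +11.9 kb element and 1 at 4.9 kb upstream. All 4677 sites measured in these genotypes were chosen by the authors as EGR2 peaks induced at 24 h of IL-4. Shares and medians over all sites describe that selected set, not a background of all regions. At the first, H3K27ac was 51.12 and 40.73 normalized tags in basal Egr2 fl/fl BMDMs and 90.46 and 77.07 at 24 h, and 28.08 and 38.68 rising to 54.03 and 67.33 in LyzMCre Egr2 fl/fl BMDMs. In each genotype the IL-4 libraries were above the basal ones. The log2 change was 0.86 ± 0.27 in Egr2 fl/fl (limma adjusted p = 0.0254; 1 of 2 sites, beside 28.1% of all sites) and 0.85 ± 0.27 in LyzMCre Egr2 fl/fl (adjusted p = 0.0357; 1 of 2, beside 18.5%). Their difference was -0.01 ± 0.38 (adjusted p = 0.995), an error that leaves room for a sizeable difference in either direction. With median-ratio scaling the changes were 0.36 (adjusted p = 0.333) and 0.68 (adjusted p = 0.0768), and leaving out single libraries raised the adjusted p to as much as 0.182 and 0.244.

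At 24 h the factors at the +11.9 kb site were lower in LyzMCre Egr2 fl/fl BMDMs for STAT6, PPARg and C/EBPb, without a call. STAT6 was 22.41 and 17.7 normalized tags in Egr2 fl/fl and 4.12 and 3.38 in LyzMCre Egr2 fl/fl, a log2 difference of -2.14 ± 0.66 (limma adjusted p = 0.174). PPARg was 572.46 and 278.9 against 134.85 and 139.53 (-1.54 ± 0.60, adjusted p = 0.338), and C/EBPb 230.4 and 142.98 against 100.42 and 70.77 (-1.10, adjusted p = 0.285). PU.1 overlapped between genotypes, with 29.99 and 17.31 against 24.5 and 25.25 (0.12 ± 0.31, adjusted p = 0.859). Over all 4677 sites the median difference between genotypes at 24 h was -0.79 for STAT6, -1.28 for PPARg, -1.14 for C/EBPb and -0.33 for PU.1, so that these medians were below 0 as well. At the upstream site C/EBPb was 39.31 and 25.18 against 5.43 and 7.51 (-2.13 ± 0.86, adjusted p = 0.0882).

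H3K27ac at +11.9 kb at 24 h was 90.46 and 77.07 against 54.03 and 67.33, a difference of -0.46 ± 0.27 (limma adjusted p = 0.231), beside a median of -0.50 over all sites. Before IL-4 the difference at this site was also -0.46 ± 0.27 (adjusted p = 0.560), beside a median of -0.20. Pol II was represented by 1 library per group and went from 5.01 to 16.16 in Egr2 fl/fl and from 5.85 to 5.32 in LyzMCre Egr2 fl/fl, a comparison of libraries with no replicate check. Between genotypes at 24 h, limma called 0 of 2 sites for every target, where the shares of all sites called were 24.7% for H3K27ac, 9.09% for H3K4me2, 0.0214% for STAT6, 0% for PPARg, 8.25% for C/EBPb and 9.45% for PU.1. Of these site and target combinations, 1 each for STAT6, PPARg and C/EBPb had an unadjusted p under 0.05, and edgeR and DESeq2, run on the factors, called 0.

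The promoter of Cd36 was read within a list of 32 genes of lipid uptake, transport and oxidation, Cd36 included. Of these genes 27 to 30 had a promoter region in a strain. Over the 10 strain and mark comparisons of H3K27ac and Pol II, 1 promoter was called higher at 24 h and 0 lower, and the 1 was Cd36 itself, for Pol II in PWK, from a mean of 37.6 to 118 normalized tags, beside the 1.72% of PWK regions called in either direction. That call is the promoter call that 3 of the fits without a library lost. The median Pol II change of the listed genes in PWK was -0.07 on the log2 scale, beside -0.03 over all PWK regions, and for H3K27ac it was -0.20 beside -0.18. In BALB the median Pol II change was 0.49 beside 0.32. By the correlation of H3K27ac over 8 strain and condition means of C57, BALB, NOD and PWK, the promoters most like that of Cd36 among 12151 were those of Myo6 (r = 0.957), Scrt2 (r = 0.940), Gm27782 (r = 0.933), Trav4-4-dv10 (r = 0.925) and Gm48074 (r = 0.924). Myo6 encodes an unconventional myosin and Scrt2 a zinc finger factor. The means of these promoters ran from 2.89 to 9.05 normalized tags at Myo6, 6.075 to 16.27 at Scrt2 and 4.535 to 17.49 at Gm48074. They ran from 0.735 to 24.75 at Trav4-4-dv10 and from 47.7 to 166 at Gm27782. The pattern at all but Gm27782 thus rests at least in part on few reads. The points are means of libraries shared by all promoters. These are the highest of 12151 correlations over 8 means, and how high such values run by chance was not tested.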

How the data were processed

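ChIP-seq tags of BMDMs were analysed from the authors' tables of regions, in which the deposited signal values are HOMER tags per region scaled to 10000000 tags per library. By the study's methods, bowtie2 aligned the reads of each strain to a genome of that strain, and the alignments were then shifted to mm10. Whole reads could be recovered from 100% of 7268918 values within 0.1 read. The authors made the deposited peak lists with HOMER, and their methods describe IDR on replicates. The score is named differently in the PPARg lists and in the EGR2 lists outside C57, so whether every list passed IDR was not established. The score and peak count of each peak are the authors' own and were used only to rank peaks within a list. Of the value columns, 4 had no matching sample and were not used.

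Log2(normalized tags + 1) was fitted per table and mark with limma 3.58.1 (trend, R 4.3.3) over all regions, and p-values were Benjamini-Hochberg adjusted over all of them (threshold 0.05), so fold changes of low regions are understated. EdgeR 4.0.16 and DESeq2 1.42.0 were run on the recovered reads as alternatives, except for the EGR2 time course and the histone marks of the Egr2 genotypes. Strains were compared on regions matched within 200 bp. Scripts were tested on simulated data. The members, the lipid list and the tests were chosen with earlier results of these data known. Named were the promoter elements, those of highest H3K27ac, those past the fold rule in both marks or called by limma, the EGR2 sites of most tags, the Egr2 genotype sites, the element with peaks in most lists, lipid genes with a call and the 5 promoters most correlated with that of Cd36 (over 4 strains, since SPRET had no region there). Replicate libraries differed beyond counting noise. Replicate numbers paired the Pol II libraries in C57 (r of deviations 0.19 to 0.40; in the time course 0.19 to 0.39), PWK (0.44 to 0.63) and SPRET (0.41 to 0.44), and the block changed no count of Pol II calls there. Intervals cover the spread between libraries, and PCR duplicates were not analysed here.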

Additional observations from a re-analysis of the deposited data

Results flagged for a closer look

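In the C57 time course table, 1 of the 4 basal Pol II libraries held 90.57 normalized tags at +67.2 kb and stood apart from the other 3, which held 19.97, 20.06 and 22.28. This was 1 of 15 groups of 4 to 10 libraries examined, and chance sets apart about 1 in 20.

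At +31.3 kb, H3K4me2 changed on the log2 scale by 0.78 in PWK, where both 24 h libraries were above both basal ones, and by -0.66 in BALB, -1.07 in C57, -0.50 in NOD and -0.39 in SPRET, where both were below. The median H3K4me2 change over all regions was -0.18 in PWK, -0.63 in BALB, -0.69 in C57, -0.30 in NOD and -0.48 in SPRET. Under scaling by the median ratio, values at +31.3 kb were 0.94 in PWK, -0.04 in BALB, -0.39 in C57, -0.21 in NOD and 0.08 in SPRET, where the sign turned. The response F test over the 5 strains called 0 regions for H3K4me2, and the PWK response exceeded the C57 response by 1.85 ± 0.59 (SE; limma adjusted p = 0.661). H3K4me3 at the same element changed by 0.82 in PWK and -0.84 in BALB, each without overlap, from 0.76 and 2.08 normalized tags to 4.03 and 2.37 in PWK and from 23.05 and 18.85 to 10.75 and 11.68 in BALB. That difference between strains was not tested.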

How the results depend on the processing

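Most counts of calls at Cd36 stayed within 1.5 times of the value given (396 of the alternatives, against 42 that moved), and no named region reversed. Many of the values given are 0, and these stayed only where the alternative was 0 too. For single regions, the outcome of the test was the same in 529 alternatives. A call was lost in 52 and gained in 9. With the replicate number as a block, limma called 1 element for H3K27ac in C57, 1 in NOD, 2 in PWK and 1 in SPRET, 6 for Pol II in NOD, 2 for H3K27ac in the C57 time course and 1 between Egr2 genotypes. Outside the paired Pol II sets these libraries share few numbers (in NOD and for H3K27ac 2 numbers), and the cause was not tested. Same-numbered basal and 24 h libraries also deviated together there. For H3K27ac r was 0.73 in C57, 0.65 in BALB, 0.72 in NOD, 0.69 in PWK and 0.51 in SPRET, and for NOD Pol II it was 0.56. With 2 numbers both replicates give the same r, so whether the libraries are paired was not settled. The main fits leave the numbers out, and these counts depend on that choice. DESeq2 called 2 for H3K27ac in PWK and 1 in SPRET, the filter on low tags gave 1 for Pol II in BALB, and a pseudocount of 5 gave 1 between Egr2 genotypes. A 2-fold limit gave 1 element for H3K27ac in NOD, 3 for Pol II in NOD and 1 for H3K27ac in SPRET. Median-ratio scaling gave 1 for H3K27ac in NOD, and a pseudocount of 5 gave 0 for Pol II in SPRET. Without single replicates, fold-rule counts ran from 0 to 1 for H3K27ac in C57, BALB, NOD and SPRET and for Pol II in C57 and SPRET, from 0 to 3 for Pol II in NOD and from 3 to 7 in BALB. Limma counts ran from 0 to 1 for H3K27ac and from 2 to 5 for Pol II in PWK, from 0 to 7 for H3K4me2, from 0 to 5 for H3K27ac in the C57 time course and from 0 to 3 for EGR2. The fit over the 5 strains called 2 for Pol II in BALB and 2 in PWK, of the 5 shared elements. That use of it, and fits of 4 strains without SPRET, of H3K4me2 between strains and of basal Pol II between strains were chosen after seeing the data. Depth limits regions of few tags: at +31.3 kb the basal Pol II of PWK rested on under 3 normalized tags per library.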
